A study of Mus musculus with 8 samples.

Results

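The keratins measured in mouse ankle joint are described here, array by array, in animals with and without a human TNF transgene. Probe sets whose annotation named 1 gene only were taken where its symbol was Krt followed by digits. This gave 61 of the 45101 probe sets of the array, for 48 genes, 24 on chromosome 11 and 24 on chromosome 15. Of these, 29 probe sets for 27 genes were bright enough to be tested, out of 24115 tested in all; a probe set was tested where it exceeded 6.87 log2 (the table's overall median) on 2 or more of the 8 arrays. Values of a gene are those of its brightest tested probe set unless another is named. Of the 29, 10 read below this value on both wild-type arrays and passed only through transgenic arrays: Krt31, Krt32, Krt33a, Krt34 and Krt86 of the hair shaft, Krt27 and Krt71 of the inner root sheath, Krt24, Krt77 and 1 probe set of Krt6a. Krt19 passed only through the wild-type arrays. Counts over the tested keratins are therefore not counts over all keratins.

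Whole ankle joints were dissected at 5 months of age, and total RNA was labelled and hybridised to 1 array per sample. The wild-type group held 2 arrays. A second group of 3 carried a transgene that overexpresses human TNFa, with normal sphingosine kinase 1 (hTNF), and the remaining group of 3 carried the same transgene and was labelled functionally null for sphingosine kinase 1, the enzyme made by Sphk1 (null-labelled). Strain and transgene promoter are not given in the sources used here, and no label says whether arrays that share a group also share a litter or a preparation, so p-values measure only the spread between these arrays.

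Several measurements on the arrays set limits for the groups. The tested Sphk1 probe set was highest on the null-labelled arrays (9.94 to 10.22 log2, against 8.28 to 8.65 in hTNF), so its level ran against the null label; where the deletion lies relative to the probe set is not given. Xist and the Y-linked gene Eif2s3y differed between arrays of each group, and wild-type replicate 2, hTNF replicate 1 and null-labelled replicate 1 had signal for both. Markers of the joint were bright on all arrays: the mean of 5 tested cartilage genes lay between 10.45 and 11.73 log2 and that of 7 tested muscle and fat genes between 10.77 and 12.96.

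Keratins are the filament proteins of epithelial cells. They assemble as pairs of a type I chain, encoded mostly on mouse chromosome 11, and a type II chain, encoded on chromosome 15. Basal keratinocytes make Krt5 with Krt14, and differentiating cells above them switch to Krt1 and Krt10 and later Krt2. Hair follicles use other sets in the inner root sheath and in the hair shaft, and single-layered epithelia use Krt8, Krt18 and Krt19. Cartilage, bone, synovium, muscle and tendon make few of them, so epidermal keratins in joint RNA are read as an index of attached skin.

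Promoters of 4 keratins are shown, as examples from the epidermis and the hair follicle: Krt5 (basal layer), Krt10 (suprabasal layer), Krt34 (hair shaft) and Krt27 (inner root sheath). Each is the 250 bases before the RefSeq start in build GRCm38.p6, written 5′ to 3′ on the gene's strand, which is the minus strand for all 4. Capitals mark TATAAA, the core of the TATA box.
Krt5, chr15:101712906-101713155
Krt5: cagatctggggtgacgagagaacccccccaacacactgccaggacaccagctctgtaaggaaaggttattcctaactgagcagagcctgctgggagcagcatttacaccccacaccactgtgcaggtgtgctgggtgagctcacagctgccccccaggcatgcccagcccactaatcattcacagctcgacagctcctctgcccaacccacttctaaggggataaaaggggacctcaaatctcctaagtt
Krt10, chr11:99389365-99389614
Krt10: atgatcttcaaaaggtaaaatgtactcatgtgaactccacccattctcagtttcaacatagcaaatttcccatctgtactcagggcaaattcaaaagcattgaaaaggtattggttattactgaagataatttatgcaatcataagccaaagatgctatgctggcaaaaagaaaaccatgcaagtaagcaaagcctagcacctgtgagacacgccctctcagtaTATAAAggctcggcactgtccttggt
Krt34, chr11:100041555-100041804
Krt34: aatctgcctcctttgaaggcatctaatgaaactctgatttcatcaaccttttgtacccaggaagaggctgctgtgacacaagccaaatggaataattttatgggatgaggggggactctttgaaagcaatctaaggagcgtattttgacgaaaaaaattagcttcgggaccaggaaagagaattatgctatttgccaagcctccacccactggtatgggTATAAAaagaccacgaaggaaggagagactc
Krt27, chr11:99351119-99351368
Krt27: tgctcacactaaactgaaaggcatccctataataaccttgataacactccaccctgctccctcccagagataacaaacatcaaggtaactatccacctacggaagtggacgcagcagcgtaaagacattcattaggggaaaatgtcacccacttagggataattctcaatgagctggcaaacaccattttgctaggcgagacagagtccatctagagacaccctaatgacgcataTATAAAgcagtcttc
The capitals begin 26 bases before the start in Krt10, 31 in Krt34 and 15 in Krt27, and Krt5 had none. RefSeq promoters were matched for 32 of the 48 keratin genes, in 33 windows. TATAAA, searched on both strands, was in 16 of these windows (48.5%) and in 12.4% of all 32851 windows of the same length. It was in 7 of 7 inner root sheath windows and 5 of 7 hair and nail shaft windows, in 1 of 7 suprabasal and in 0 of 2 basal windows. The only match was on the opposite strand in Krt72 and Krt84, 203 and 206 bases before the start. Variants of these letters, such as tatataag near the start of Krt2, were not counted. TGANTCA, an AP-1 motif, was in 2 keratin windows, both of Krt13 (6.06%, against 6.75% of all windows). GCCNNNGGC, an AP-2 motif, was in 3 (9.09%, against 13.7%). A match is a description of the letters in the window.

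The epidermal keratins varied far more between arrays of 1 group than between the groups. Krt14, the type I keratin of basal cells, read 8.01 and 6.89 log2 on the wild-type arrays, 12.32, 6.48 and 9.38 on hTNF replicates 1, 2 and 3, and 10.64, 6.01 and 9.76 on null-labelled replicates 1, 2 and 3. Its partner Krt5 read 7.90 and 7.01 in wild type, 11.53, 7.04 and 8.78 in hTNF, and 9.96, 7.36 and 9.32 on the null-labelled arrays. Both genes were highest on hTNF replicate 1 and near the filter value on hTNF replicate 2, and all 3 groups overlapped. Within the hTNF group alone Krt14 spanned 5.84 log2, a 57.3-fold range of summarised brightness, and Krt5 spanned 4.49 log2 (22.5-fold). Krt15, a keratin of basal cells and of the hair bulge, followed the same order with 9.35, 6.06 and 7.19 in hTNF and 7.87, 6.17 and 7.64 on the null-labelled arrays, against 7.01 and 6.17 in wild type. In whole-joint RNA, a smaller share of a cell type and less RNA per cell cannot be told apart.

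Among the suprabasal keratins, Krt2 and Krt10 spread wider than Krt14 within hTNF and the other tested ones less. Krt2, made in the upper layers of the epidermis, read 10.03 and 6.75 log2 on the wild-type arrays, 13.77, 4.43 and 11.24 in hTNF, and 12.52, 5.93 and 11.80 on the null-labelled arrays. Its hTNF range of 9.34 log2 was 648-fold, and its lowest value of all arrays, on hTNF replicate 2, lay below both wild-type arrays. Krt10, the type I keratin of differentiating keratinocytes, read 10.56 and 8.50 in wild type, 14.08, 7.28 and 11.45 in hTNF, and 13.12, 7.46 and 11.84 on the null-labelled arrays. Its partner Krt1 read 9.32 and 7.23 in wild type, 11.40, 5.93 and 8.72 in hTNF, and 9.94, 6.87 and 9.55 on the null-labelled arrays. For both genes wild-type replicate 1 stood above hTNF replicate 2 and null-labelled replicate 2, so the groups overlapped in each comparison. Krt24, a keratin of differentiating epidermis, went from 6.17 on hTNF replicate 2 to 11.68 on replicate 1, with wild type at 6.72 and 6.38. Krt79, found in the upper hair follicle and sebaceous gland, went from 6.57 to 10.35 within hTNF and from 6.33 to 8.53 within the null-labelled arrays. Krt77 (5.99 to 8.47 in hTNF, 6.29 to 6.61 on the null-labelled arrays) and Krt78 (7.55 to 8.69 and 7.66 to 7.86) spread in the hTNF group but little in the null-labelled one. Krt23, not tested, exceeded the filter value on hTNF replicate 1 alone (6.93, against 5.73 to 6.14 elsewhere).

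**Figure D1:**
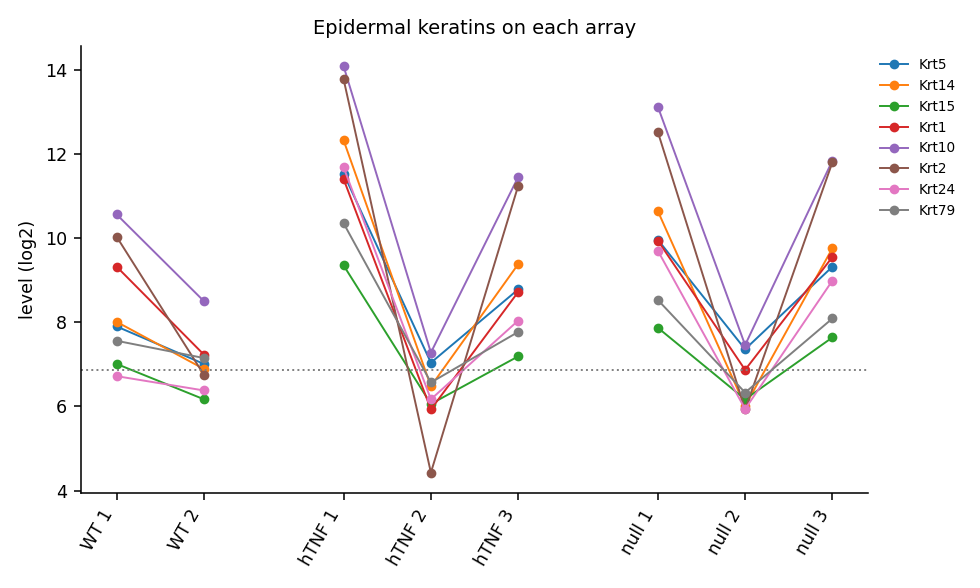
Level (log2) of 8 epidermal keratins on each of the 8 arrays; each point is 1 array, lines only join the arrays of a group, and the dotted line is the filter value of 6.87. Every gene was highest on hTNF replicate 1, and both transgenic groups hold high and low arrays, with replicate 2 the lowest of each.

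The order of the arrays was shared. All 11 tested basal and suprabasal keratins were highest on hTNF replicate 1, where 8.32% of all tested probe sets had their maximum. In 9 of the 11 the hTNF arrays ran replicate 1 above 3 above 2 and the null-labelled arrays likewise, an order that 4.99% of all tested probe sets showed in both groups. The residual SD, the spread between arrays of a group in the fit, had a median of 0.77 log2 over the 29 tested keratin probe sets and of 0.16 over all tested probe sets. Of the 29, 15 were among the 1% of probe sets with the largest residual SD, and 19 spanned more than 1 log2 within hTNF, against 1.79% of all tested probe sets. Replicate numbers name arrays and carry no order.

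Keratins of stressed epidermis and of appendages were not called in any comparison. Krt6a, induced in wounded or hyperproliferative epidermis, has 2 tested probe sets. The brighter read 7.96 and 7.74 log2 on the wild-type arrays, 9.34, 7.86 and 8.15 in hTNF, and 7.94, 8.12 and 8.35 on the null-labelled arrays. The dimmer one, with a wider range, read 5.75 and 5.69, then 9.35, 5.80 and 6.79, then 7.54, 6.07 and 7.65. Neither passed the test in hTNF against wild type (limma adjusted p = 0.245 and 0.201), and Krt6a and Krt6b are near-identical copies whose signals the array may not separate. Krt6b (5.90 to 6.41 over all arrays) and Krt16 (4.49 to 5.21), the partner of Krt6a, stayed below the filter value on all 8 arrays. The wider of the Krt17 probe sets exceeded it on hTNF replicate 1 alone (7.18, against 4.44 to 5.66 elsewhere). Krt75, a keratin of the follicle's companion layer, and Krt42, a nail keratin, lay at 7.08 to 7.98 and 9.21 to 9.76 over all arrays, with neither called. The other Krt42 probe set read 5.69 to 5.98, below the filter value on all arrays.

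Within hTNF, most hair shaft keratins followed another order than the epidermal ones. Krt33a, a type I keratin of the hair cortex, read 5.09 and 5.00 log2 on the wild-type arrays, 7.20, 5.18 and 7.79 in hTNF, and 6.56, 5.01 and 6.45 on the null-labelled arrays. Krt34, another cortex keratin, read 6.08 and 6.15, then 7.94, 6.13 and 8.30, then 6.95, 6.09 and 6.74. Krt86, a type II hair keratin, read 5.62 and 5.52, then 7.14, 5.68 and 7.76, then 6.54, 5.60 and 6.68. All 3 were higher on hTNF replicate 3 than on replicate 1, by 0.59, 0.36 and 0.62 log2, whereas Krt14 was 2.94 lower there. On the null-labelled arrays Krt33a and Krt34 ran replicate 1 above 3 above 2, as Krt14 did. Krt86 was 0.14 log2 higher on null-labelled replicate 3 than on replicate 1. Of the 9 tested hair and nail shaft keratins, 8 were highest on hTNF replicate 3, and Krt32 was the exception; of the 11 basal and suprabasal keratins none was higher on replicate 3 than on replicate 1. Over all tested probe sets, 54.0% were higher on replicate 3. Krt31 (6.14 to 7.43 within hTNF) and Krt33b (7.42 to 8.30) showed the same order at a smaller range, and Krt81, Krt83 and Krt84 spanned at most 0.66 log2 within hTNF. Of the 9, Krt31, Krt32, Krt33a, Krt34 and Krt86 passed the filter only through transgenic arrays, so their maximum had to lie on a transgenic array.

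Both wild-type arrays were at the low end for the hair cortex keratins. Krt31, Krt33a, Krt34 and Krt86, like Krt27 and Krt71, passed the filter only through transgenic arrays. Low wild-type values were therefore part of their selection. Wild-type replicate 1, which read 10.56 for Krt10, read 5.09 for Krt33a, close to the 5.18 of hTNF replicate 2. The inner root sheath keratins Krt27 and Krt71 were highest on hTNF replicate 1, like the epidermal genes. Krt27 read 6.21 and 5.90 in wild type, 8.34, 6.26 and 6.85 in hTNF, and 7.19, 6.13 and 6.83 on the null-labelled arrays, and Krt71 went from 6.72 to 8.36 within hTNF. Krt25, like Krt27 a type I keratin of the inner root sheath, passed the filter value on 1 array only (8.62 on hTNF replicate 1, against 4.86 to 6.85 elsewhere).

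**Figure D2:**
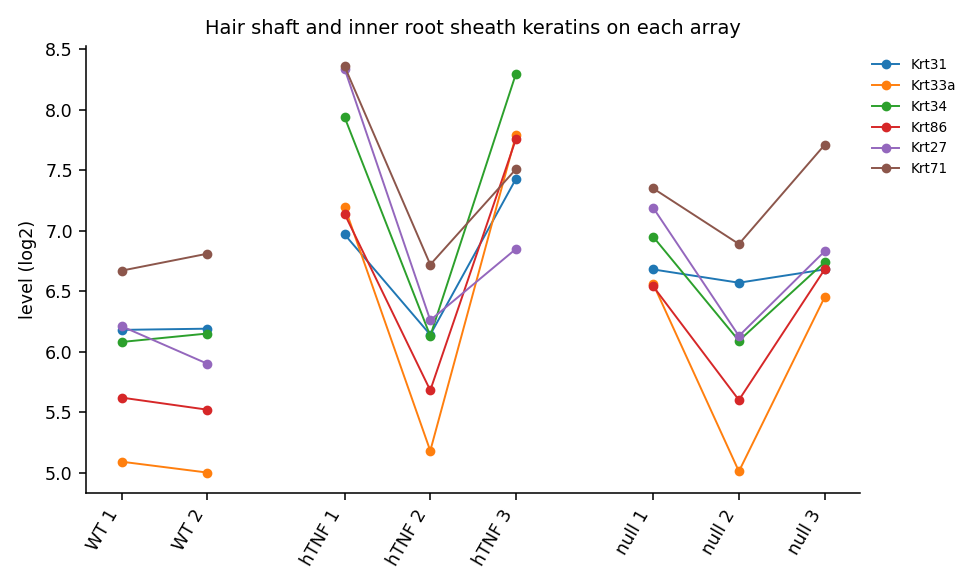
Level (log2) of 4 hair shaft keratins (Krt31, Krt33a, Krt34, Krt86) and 2 inner root sheath keratins (Krt27, Krt71) on each of the 8 arrays; points are arrays and lines join the arrays of a group. The shaft keratins are highest on hTNF replicate 3 and the sheath keratins on hTNF replicate 1, while hTNF replicate 2 and both wild-type arrays are low. All of these genes passed the filter only through transgenic arrays, so the low wild-type values go with their selection.

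Krt19 and Krt80 changed between genotypes against wild type, over a narrower range within groups than Krt5, Krt14, Krt1 and Krt10. Krt19, a small type I keratin of simple epithelia, read 7.74 and 7.15 log2 on the wild-type arrays, 6.41, 6.33 and 6.47 in hTNF, and 6.42, 6.14 and 6.04 on the null-labelled arrays. Both wild-type arrays lay above all transgenic arrays. Krt19 fell by 1.04 ± 0.20 log2 (SE, 3 arrays against 2) in hTNF against wild type (limma adjusted p = 0.00354) and by 1.25 ± 0.20 on the null-labelled arrays against wild type (limma adjusted p = 0.00104). It passed the filter only through the wild-type arrays and read below the filter value on all transgenic arrays, so the size of the fall depends on the background. Krt80, a type II keratin of several epithelia, read 8.32 and 7.86 in wild type, 9.27, 8.66 and 8.70 in hTNF, and 9.18, 9.11 and 8.96 on the null-labelled arrays. It rose by 0.79 ± 0.21 log2 in hTNF (limma adjusted p = 0.0162) and by 0.99 ± 0.21 on the null-labelled arrays (limma adjusted p = 0.00418). The hTNF call ended without wild-type replicate 2 (0.56, limma adjusted p = 0.137). Krt80 was above both wild-type arrays on hTNF replicate 2, with Krt14 at 6.48, and was highest on hTNF replicate 1, with Krt14 at 12.32. The cause of the rise was not tested.

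Krt18, the partner of Krt8 in simple epithelia, was below the filter value on all arrays. It read 6.11 and 6.14 log2 on the wild-type arrays, 5.39 to 5.63 in hTNF and 5.37 to 5.49 on the null-labelled arrays. In the fit without a filter it was 0.65 ± 0.12 lower in hTNF (limma adjusted p = 0.00536) and 0.70 ± 0.12 lower on the null-labelled arrays (limma adjusted p = 0.00262). The brightest Krt8 probe set, its partner, read 6.83 and 6.83 in wild type, 6.77 to 6.88 in hTNF and 6.49 to 6.65 on the null-labelled arrays. Krt7 and Krt20, other keratins of simple epithelia, stayed within 4.97 to 5.32 and 5.74 to 6.06. The mucosal and corneal keratins Krt4, Krt12, Krt13 and Krt76 were below the filter value on all arrays.

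**Figure D3:**
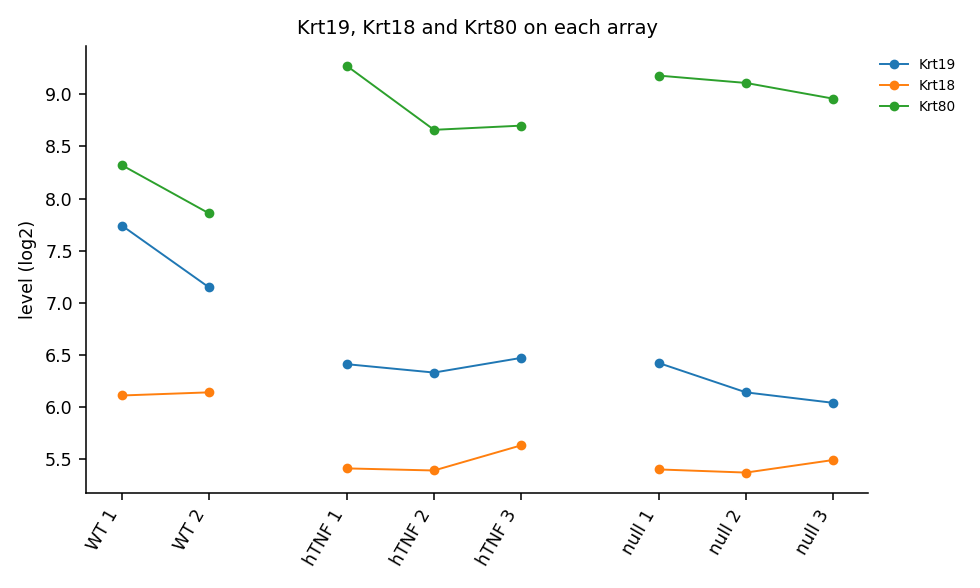
Level (log2) of Krt19, Krt18 and Krt80 on each of the 8 arrays; points are arrays and lines join the arrays of a group. Krt19 and Krt18 are higher on both wild-type arrays than on all 6 transgenic ones, and Krt80 is lower.

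Across the 29 tested keratin probe sets, hTNF against wild type gave 1 rise and 1 fall, or 2 calls, while 33.0% of all tested probe sets were called (16.6% higher and 16.4% lower). Over all 61 keratin probe sets, tested or not, 45 had a positive sign and the median difference was 0.22 log2, against -0.01 over all probe sets without the filter. Over the 29 tested, 27 were positive, among them the 10 that passed only through transgenic arrays. The standard errors of the 29 were large, with a median of 0.53 against 0.146 over all. Krt14 was 1.94 ± 1.64 higher (limma adjusted p = 0.416), Krt5 1.66 ± 1.14 higher (limma adjusted p = 0.311) and Krt10 1.41 ± 1.98 higher (limma adjusted p = 0.648). The groups did not overlap in 7 of the 29 (6 higher and 1 lower), against 61.5% of all tested probe sets. Of these, Krt27, Krt33a, Krt86 and the dimmer tested Krt6a probe set had passed the filter only through transgenic arrays. Krt19, the 1 lower, had passed only through the wild-type arrays. Without hTNF replicate 2, on which many keratins were low, 10 were called. That array differs in the measured outcome itself, and of the 8 calls it added, Krt27, Krt31, Krt33a, Krt34, Krt71, Krt77 and Krt86 had passed the filter only through transgenic arrays, so the count is given as a dependence on 1 array and not as a difference between genotypes.

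Between the null-labelled and the hTNF arrays no keratin was called by limma, with 0 of 29 also at an unadjusted p under 0.05; 2 of all tested probe sets were called (0.00829%, both higher). Over all 61 keratin probe sets the median was -0.13 log2, against 0.01 over all probe sets without the filter, and 17 were positive. Krt14 differed by -0.59 ± 1.47, Krt10 by -0.13 ± 1.77 and Krt2 by 0.27 ± 2.38 log2, errors that leave changes of several fold in either direction undetectable. None of the 29 tested keratin probe sets separated these groups without overlap, against 11.2% of all tested probe sets; 1 dim Krt8 probe set, not tested, was lower on all null-labelled arrays. The null-labelled arrays against wild type again gave 1 rise and 1 fall, Krt80 and Krt19, while 39.0% of all tested probe sets were called (18.7% higher and 20.2% lower). That comparison and the first share the wild-type arrays. Groups did not overlap in 8 of 29 keratin probe sets there (7 higher, 1 lower), against 57.3% of all. Of these, Krt31, Krt32, Krt71 and the dimmer tested Krt6a probe set had passed the filter only through transgenic arrays. Krt19, the 1 lower, had passed only through the wild-type arrays.

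**Figure D4:**
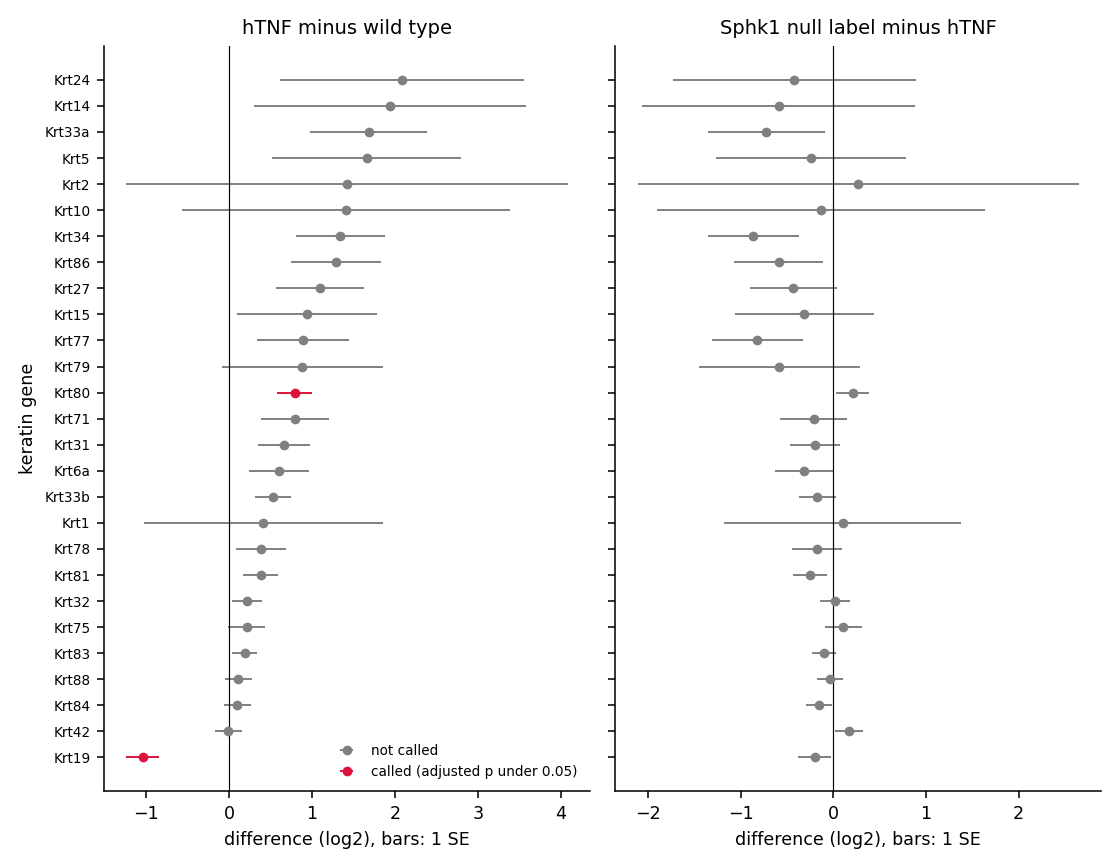
Difference in log2 level of the 27 tested keratin genes, hTNF minus wild type on the left and null-labelled minus hTNF on the right, with bars of 1 standard error. Called genes, in red, are Krt80 and Krt19 on the left and none on the right, and the widest bars belong to Krt2, Krt10, Krt14, Krt24 and Krt1.

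Krt1 was not called as measured, and was called lower on the transgenic arrays relative to the basal pair, used as a covariate. The covariate is itself made of keratins, so the adjusted difference is not a difference in the level of Krt1. In a fit with the mean of Krt5 and Krt14 on each array as a covariate, Krt1 differed by -1.42 ± 0.33 log2 in hTNF against wild type (limma adjusted p = 0.00945) and by -0.90 ± 0.32 on the null-labelled arrays (limma adjusted p = 0.0496). Without the covariate the differences were 0.41 ± 1.44 and 0.51 ± 1.44. Arrays with low signal were mixed. Krt1 and Krt14 read 7.23 and 6.89 on wild-type replicate 2, 5.93 and 6.48 on hTNF replicate 2, and 6.87 and 6.01 on null-labelled replicate 2. On wild-type replicate 1 they read 9.32 and 8.01, and on hTNF replicate 3 they read 8.72 and 9.38. Krt10 (-1.13 ± 0.39, limma adjusted p = 0.0588) and Krt2 (-1.91 ± 0.80, limma adjusted p = 0.109) had the same sign in hTNF without passing. On the null-labelled arrays Krt79 also passed (-0.66 ± 0.21, limma adjusted p = 0.0345). Krt19 (-1.11 ± 0.22, limma adjusted p = 0.00461) and Krt80 (0.63 ± 0.19, limma adjusted p = 0.0339) remained called in hTNF. The fit rests on 2 wild-type arrays, on 1 of which Krt14 was near the filter value, and on 4 residual degrees of freedom. Krt14 was below that value on hTNF replicate 2 and null-labelled replicate 2. The same covariate gave 7153 calls over all tested probe sets in hTNF against wild type, where 7965 were called without it.

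Genes of the epidermis outside the keratin family had the same array order. Of 24 tested genes of the cornified envelope, the protein shell of the outermost skin cells, all 24 ran hTNF replicate 1 above 3 above 2, and 20 ran null-labelled replicate 1 above 3 above 2, against 13.7% and 44.7% of all tested probe sets. None of the 24 was called in any comparison, where 33.0%, 0.00829% and 39.0% of all tested probe sets were called in hTNF against wild type, null-labelled against hTNF and null-labelled against wild type. Loricrin (Lor), the main shell protein, read 9.17 and 8.34 log2 on the wild-type arrays, 12.56, 7.47 and 9.45 in hTNF, and 11.27, 7.99 and 10.35 on the null-labelled arrays. Filaggrin (Flg), which bundles keratin filaments, read 6.94 and 4.41, then 11.19, 4.40 and 7.25, then 10.06, 4.66 and 8.12. Per log2 of the Krt5 and Krt14 mean, the 24 genes moved by a median of 0.66 log2.

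Of the 19 tested junction and basement membrane genes, 13 ran hTNF replicate 1 above 3 above 2. Desmoplakin (Dsp) went from 5.17 to 12.51 within hTNF, Dsc1 from 4.49 to 10.40 and Dsg1a from 4.67 to 10.16. In hTNF against wild type 4 of the 19 fell and none rose, against 16.4% and 16.6% of all tested probe sets. The falls were the hemidesmosome integrin chains Itgb4 (-1.12 ± 0.14, limma adjusted p = 0.000412) and Itga6 (-1.01 ± 0.13, limma adjusted p = 0.000402), Dst (-0.68 ± 0.09, limma adjusted p = 0.000691) and the transcription factor Klf5 (-1.36 ± 0.40, limma adjusted p = 0.0266). On the transgenic arrays Itgb4 stayed within 8.19 to 8.54, while Klf5 spanned 7.80 to 9.37 and was highest on hTNF replicate 1 and null-labelled replicate 1, where Krt14 was also highest. Of 7 tested barrier lipid genes none was called in hTNF against wild type, against 33.0% of all tested probe sets. Elovl4, which makes very long chain fatty acids, went from 5.52 to 9.90 within hTNF.

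The 10 genes most like Krt14 were chosen by the mean absolute difference between profiles, each centred on its own mean, over the 8 arrays, out of 12335 non-keratin genes with a median of 1.83 log2. They were Calm4 (0.26), Pof1b (0.27), Gm94 (0.31), Dmkn (0.32), Dsc1 (0.32), 2310050C09Rik (0.33), Lce1c (0.36), Crct1 (0.37), Mt4 (0.39) and Perp (0.40). Among keratins the closest were Krt24 (0.35), Krt10 (0.44) and Krt5 (0.56), and the most distant was Krt19 (2.09). Calm4, a calcium-binding protein of the epidermis, read 9.18 and 7.55 log2 on the wild-type arrays, 13.04, 7.32 and 9.71 in hTNF, and 11.46, 7.45 and 10.23 on the null-labelled arrays.

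The list of keratin-associated proteins and hair regulators had 46 measured genes, of which 15 were tested. Krtap8-1, a matrix protein of the shaft, read 5.57 and 5.48 log2 on the wild-type arrays, 8.33, 5.44 and 9.45 in hTNF, and 7.75, 6.29 and 7.82 on the null-labelled arrays. Krtap15 read 5.70 and 4.98, then 7.60, 4.92 and 9.11, then 6.57, 5.52 and 7.32. Both passed the filter only through transgenic arrays, as did others of the 15. Low wild-type values and a maximum on a transgenic array were therefore part of their selection. Krtap8-1 and Krtap15 were named after their values were seen, as examples highest on hTNF replicate 3. Neither passed the test in hTNF (limma adjusted p = 0.111 and 0.191). Over the whole list this order was not shared: 6 of the 15 were higher on replicate 3 than on replicate 1, against 54.0% of all tested probe sets, and 5 were highest on each of these arrays. Of the 15, 13 were higher on null-labelled replicate 3 than on replicate 1. Only Dlx3, a transcription factor that is also made in bone, was called (-0.80 ± 0.13 in hTNF, limma adjusted p = 0.00165), 1 of 15 where 33.0% of all tested probe sets were called. None of the 6 melanocyte genes was bright enough to test, and of 9 sweat gland genes 2 were.

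Joint tissue and filament genes outside the keratins did not share the range. The mean of 6 fibroblast genes was 13.82 to 13.93 log2 within hTNF and 13.93 to 14.03 within the null-labelled arrays, and the mean of the cartilage genes 10.54 to 10.81 and 10.45 to 10.48. The cornified envelope mean spanned 6.37 to 10.12 and 6.55 to 8.92 on the same arrays. Of 6 tested non-keratin filament genes, all 6 were called in hTNF, against 33.0% of all tested probe sets. The rises were Vim (0.52 ± 0.06), Lmna (1.06 ± 0.14) and Lmnb1 (1.00 ± 0.14), and the falls were the muscle filament genes Des (-1.66 ± 0.24) and Synm (-1.11 ± 0.14) and Nes (-0.95 ± 0.17), with limma adjusted p from 0.000209 to 0.00278. Vimentin (Vim), the filament of mesenchymal cells, was at 14.37 to 14.41 within hTNF, where Krt14 spanned 5.84 log2. Per log2 of the Krt5 and Krt14 mean, the median movement was -0.02 log2 for fibroblast, 0.04 for muscle and fat and -0.03 for immune genes.

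**Figure D5:**
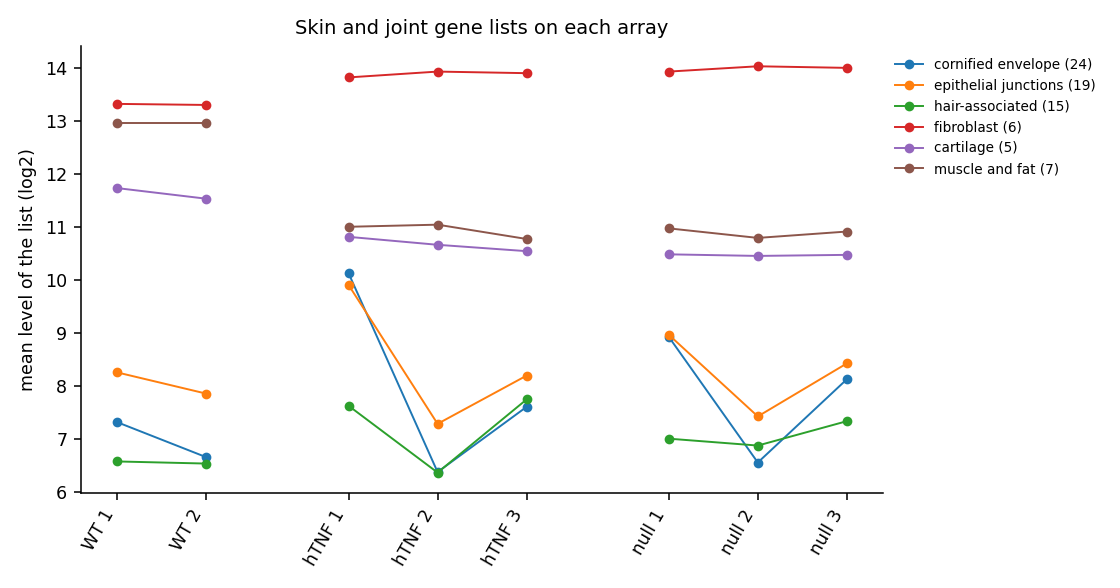
Mean log2 level of the tested genes of 6 lists on each array (numbers of genes in the key); lines join the arrays of a group. The 3 skin and hair lists swing within each transgenic group, while fibroblast, cartilage and muscle and fat lists are level within groups and differ between wild type and the transgenic arrays.

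Of 8 tested inflammatory genes that keratinocytes can make, 3 were called in hTNF against wild type, near the 33.0% of all tested probe sets. Il1f9, an interleukin 1 family cytokine of epithelia, rose in hTNF (0.56 ± 0.19, limma adjusted p = 0.0439), as did the chemokine Ccl20 (0.62 ± 0.17, limma adjusted p = 0.0186), and the skin chemokine Ccl27a fell (-0.86 ± 0.19, limma adjusted p = 0.0075). Il1f9 and Ccl20 passed the filter only through transgenic arrays, and Ccl27a only through the wild-type arrays. The directions of these calls therefore go with the selection of the genes. Ccl27a read 7.38 and 7.02 log2 on the wild-type arrays, 6.25, 6.41 and 6.37 in hTNF, and 6.29, 5.81 and 6.21 on the null-labelled arrays. It was lowest of the hTNF arrays on replicate 1, where Krt14 was highest. Sprr2d, a cornified envelope precursor, had the keratin order there, with 7.88, 6.13 and 6.55, and 2 of the 8 ran replicate 1 above 3 above 2. S100a8, made by neutrophils and by stressed keratinocytes, stood at 10.45 on wild-type replicate 1 and 13.24 on replicate 2, and hTNF arrays lay between these at 12.18 to 12.93. The 3′ to 5′ difference of the actin control probe sets was 0.60, 0.47 and 0.57 log2 on hTNF replicates 1, 2 and 3, and its part in these results was not tested.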

How the data were processed

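Values are log2 expression per probe set, as deposited by the authors in 1 table for 8 single-colour Affymetrix arrays. The submitters' processing notes name RMA, MAS5 and Affymetrix Expression Console; which produced the values, and the genome build, are not given in the sources used here. Array medians were 6.84 to 6.89. Gene names came from GEO's platform annotation (34945 with 1 gene, 932 with several, 9160 with none listed; 64 control probe sets left out), and symbols were brought up to date by gene ID with a GRCm38.p6 table (34754 matched). A probe set shared by Krt14 and Krt17 was not used. The number of arrays limits the precision.

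A mean per group was estimated for all 24115 tested probe sets with limma 3.58.1 (R 4.3.3, intensity trend, 5 residual degrees of freedom), and checked on simulated data. Adjusted p is Benjamini-Hochberg over all tested probe sets, and a call is an adjusted p under 0.05. Only calls are described as rises or falls. Named were Krt1, Krt2, Krt5, Krt6a, Krt6b, Krt7, Krt8, Krt9, Krt10, Krt14, Krt15, Krt16, Krt17, Krt18, Krt19, Krt23, Krt79 and Krt80 where measured, and all called keratins; further keratins named here were chosen after their values were seen. The members and lists were chosen with earlier results of these data known.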

Additional observations from a re-analysis of the deposited data

How the results depend on the processing

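Krt19 kept its direction and its call against wild type in both transgenic groups under every alternative in which it was tested; with the stricter filter it was not. Krt80 kept its direction and its call in both comparisons except in hTNF against wild type without wild-type replicate 2 (0.56, limma adjusted p = 0.137) and without the 3 arrays on which Xist and a Y-linked gene both had signal (0.36, limma adjusted p = 0.0778), the last an alternative chosen after seeing the data. In hTNF against wild type, 4 keratin probe sets were called with no filter, 1 with the stricter filter (above 7.54 log2) and 1 without those 3 arrays, and leaving out 1 array at a time gave 1 to 10. With no filter they were Krt19, Krt80, Krt18 and the dim Krt73 (1.05 ± 0.30, limma adjusted p = 0.0366). On the null-labelled arrays against wild type, 1 was called with the stricter filter and 4 with the Krt5 and Krt14 covariate, and 2 to 3 without 1 array. No alternative gave a keratin call between the transgenic groups.

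Over all tested probe sets, same-numbered arrays did not deviate together in all pairs (r = 0.228, 0.054 and 0.251 between hTNF and null-labelled replicates 1, 2 and 3). The numbers were therefore not taken as pairing, although most epidermal keratins ran in the same order of numbers in both transgenic groups. With the number as a replicate block, 4 keratin probe sets were called in hTNF against wild type, adding Krt27 and Krt33a. Both had passed the filter only through transgenic arrays, and Krt33a was at the threshold (limma adjusted p = 0.05). The standard errors of Krt1, Krt2, Krt10 and Krt14 in hTNF against wild type were 0.62, 1.00, 0.83 and 0.86 with the block. Without it they were 1.44, 2.66, 1.98 and 1.64, and none of these genes was called in either fit.

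Epidermal keratins that were not called changed sign easily. In hTNF against wild type the covariate gave -1.42 for Krt1, -1.91 for Krt2, -1.13 for Krt10, -0.12 for Krt15 and -0.36 for Krt79; on the null-labelled arrays -0.90, -0.87, -0.68, -0.19 and -0.66; and between the transgenic groups 0.45 for Krt10. Without the 3 arrays the differences from wild type were -2.0 and -1.11 for Krt1, -2.19 and -1.17 for Krt2, -1.20 and -0.91 for Krt10, -0.08 and -0.12 for Krt14, -0.39 and -0.10 for Krt15 and -0.39 and -0.35 for Krt79. Between the transgenic groups they were 0.43 for Krt5, 0.23 for Krt6a, 0.28 for Krt10, 0.28 for Krt15 and 0.04 for Krt79. For Krt1, Krt2, Krt10, Krt14, Krt15, Krt79 and Krt80, these 3 arrays were the lower wild-type array and the highest array of each transgenic group. Leaving them out therefore moves the differences from wild type down by construction. Leaving out 1 array gave, in hTNF against wild type, -0.95 to 1.78 for Krt1, -0.56 to 4.12 for Krt2, -0.17 to 3.23 for Krt10 and -0.18 to 1.71 for Krt79. It gave, between the transgenic groups, -1.27 to 1.46 for Krt1, -2.42 to 2.35 for Krt2, -1.27 to 0.97 for Krt5, -0.61 to 0.13 for Krt6a, -1.96 to 1.54 for Krt10, -2.05 to 0.87 for Krt14, -1.04 to 0.60 for Krt15 and -1.41 to 0.48 for Krt79. On the null-labelled arrays against wild type it gave -0.53 to 1.56 for Krt1 and -0.14 to 0.95 for Krt79. The cause of these sign changes was not tested.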
